A study of Homo sapiens with 6 samples.

Results

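The apoptosis branch of the p53 response was followed through 10 genes: BBC3, PMAIP1, BAX, FAS, TNFRSF10A, TNFRSF10B, AEN, TP53INP1, TP53I3 and ZMAT3. They were taken by gene symbol from all 6 deposited tables, which list 39020 genes between them. All 10 are in the untreated RNA-seq table, 9 of them, without TNFRSF10A, in the irradiated RNA-seq table, and 9 in every iCLIP table, none of which lists AEN. The cells were U2OS, a human osteosarcoma line that carries functional p53.

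The irradiated cells were given 5 Gy of X-rays and left to recover for 4 h, per the labels, and were set against cells with no treatment; the design text names gamma radiation for the RNA-seq part. iCLIP used U2OS cells stably transfected with FLAG-tagged TIRR, genotype TIRR_FLAG, in 2 irradiated and 2 untreated libraries. RNA-seq used cells labelled WT, in 1 irradiated and 1 untreated library, so the assays also differ in genotype and RNA-seq has no replicate check. iCLIP crosslinks RNA to bound protein with ultraviolet light, here followed by FLAG immunoprecipitation and sequencing of the attached RNA. TIRR, made from NUDT16L1, binds the repair protein 53BP1. The sources used here do not say whether the transfected cells were 1 clone. Empty-vector cells were not used here, and the iCLIP values therefore carry no background correction. The labels do not say whether replicates were separate cultures, so the p-values rest on a spread between libraries that may be purely technical.

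After DNA breaks, p53 is stabilised and switches on genes of arrest, repair and death. Its death genes act at several levels. BBC3 (PUMA) and PMAIP1 (NOXA) are BH3-only proteins that free BAX, a pore former of the outer mitochondrial membrane. FAS and the TRAIL receptors TNFRSF10A (DR4) and TNFRSF10B (DR5) carry death signals from the cell surface. AEN is an apoptosis-enhancing nuclease, TP53INP1 a nuclear protein that promotes p53 activity and autophagy, TP53I3 an oxidoreductase linked to reactive oxygen, and ZMAT3 a zinc finger protein that binds RNA and regulates splicing.

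The irradiated iCLIP libraries held 400723 and 664777 counts on genes and the untreated ones 781997 and 799709. The RNA-seq libraries held 13023903 (irradiated) and 13015406 (untreated). Of 8 mesenchymal and osteoblast markers, 7 had at least 100 counts in the untreated RNA-seq library. The 8 markers of epithelial, blood and endothelial cells had 0 to 57 counts in the irradiated and 0 to 55 in the untreated RNA-seq library. In both assays a change in the number of responding cells and a change in RNA per cell cannot be told apart.

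In the TIRR iCLIP libraries BBC3, FAS, TP53INP1, ZMAT3 and BAX rose after irradiation (edgeR quasi-likelihood test, Benjamini-Hochberg adjusted p below 0.05). None of the 8 tested genes fell. For all 8 tested genes the lower irradiated share exceeded the higher untreated share, as it did for 17.6% of all genes tested. For TNFRSF10A, listed but not tested, the groups overlapped. BBC3 rose most, 7.28-fold, and BAX least, 2.05-fold. PMAIP1, TNFRSF10B and TP53I3 had positive changes that did not pass, TNFRSF10A was too sparse to test, and AEN was not listed. Of all 9230 genes tested, 3.5% changed and 2.43% rose. The genes followed here were chosen with earlier results of these data known, so these shares give a background and no test of the set. The test's filter on low counts asked for 2 libraries with at least 13.8 CPM, which are counts scaled to a total of 1000000 gene counts per library. BBC3, PMAIP1, BAX, TNFRSF10B and ZMAT3 met it in both groups, and 3 of these 5 rose. FAS, TP53INP1 and TP53I3 met it through the irradiated libraries alone, so their passing already required a difference. It also fixed in advance that their irradiated shares exceed their untreated ones. The filter did not fix this for the other 5, whose groups did not overlap either. With no filter at all, 5 of the 9 listed genes rose, beside 0.804% of 28231 genes. Their median log2 fold change was then 1.01, beside -0.04 over all genes. Without irradiated library 2, the called genes numbered 3, with FAS and BAX lost. Scaled by library totals, 58.2% of all iCLIP calls were rises, against 69.3% here, while the same 5 genes rose.

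**Figure D1:**
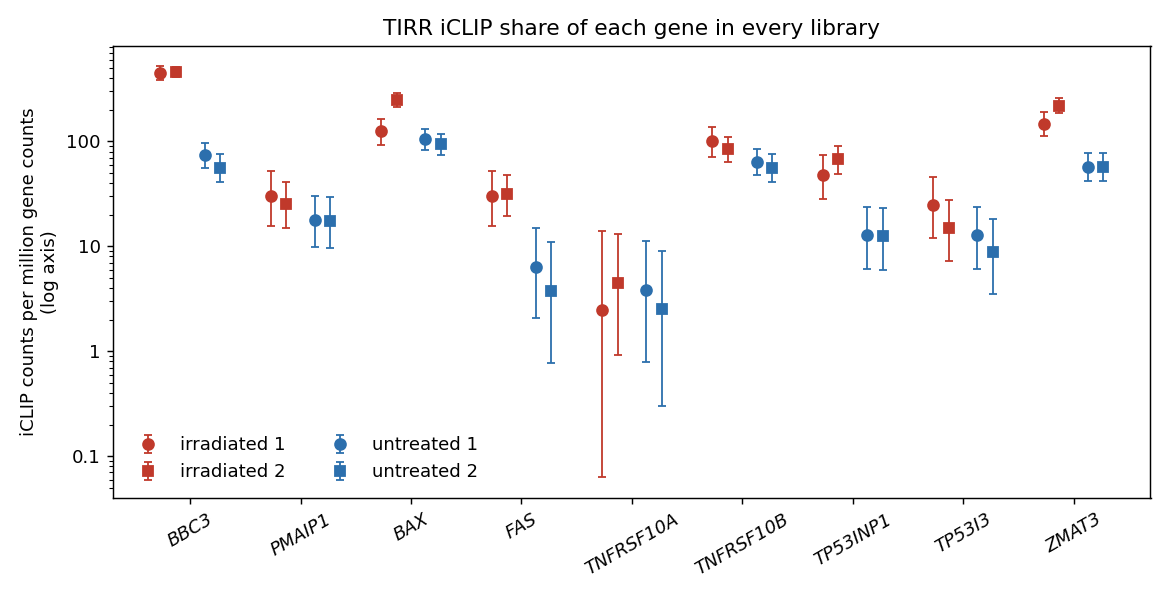
TIRR iCLIP level of each gene in CPM (log axis) in the 2 irradiated (red) and 2 untreated (blue) libraries, with exact 95% intervals that cover counting error only. Both irradiated libraries lie above both untreated ones for each gene shown except TNFRSF10A, and the 2 irradiated values of BAX, 125 and 248, lie far apart.

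Among the genes of the mitochondrial route, BBC3 stood highest after irradiation. It lies on chromosome 19, 47220824 to 47232860 (RefSeq, GRCh38.p14). It had 447 and 460.3 CPM in the irradiated libraries, against 74.2 and 56.3 in the untreated ones. These shares rest on 179 and 306 counts in the irradiated and 58 and 45 in the untreated libraries. The irradiated values nearly coincide, and the groups are far apart. The log2 fold change was 2.86 ± 0.17 (SE, edgeR adjusted p = 7.61e-09), the eighth largest of all tested genes, and it stayed between 2.67 and 3.06 under all 10 alternatives. BBC3 alone took 46.9% and 39.8% of the summed counts of the 9 listed genes in the irradiated libraries, against 20.9% and 18.2% in the untreated ones.

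BAX (chromosome 19, 48954875 to 48961798), the pore former, had 125 and 248 CPM in the irradiated libraries, against 105 and 93.8 in the untreated ones. The groups do not overlap, but the first irradiated library lies close to the untreated ones. Irradiated library 2 was 1.99-fold above irradiated library 1 (exact conditional 95% interval 1.44 to 2.79, counting error only). The fitted log2 fold change was 1.04 ± 0.24 (SE, edgeR adjusted p = 0.0170). Without irradiated library 2 it was 0.41 (edgeR adjusted p = 0.535), without irradiated library 1 it was 1.38 (4.32e-10). With an arm of 1 library, here and in every fit that leaves a library out, the spread comes from the other group and the lone library is assumed to vary like it. With thinning to equal depth and with DESeq2 the adjusted p was 0.179 and 0.0916.

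PMAIP1 (chromosome 18, 59899996 to 59904305), a gene of the same BH3-only group as BBC3, had 29.9 and 25.6 CPM in the irradiated libraries, against 17.9 and 17.5 in the untreated ones. These are 12 and 17 counts in the irradiated and 14 and 14 in the untreated libraries. The irradiated shares are the higher ones, but the change, 1.61-fold with a 95% interval of 0.910 to 2.84, did not pass (edgeR adjusted p = 0.458).

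Among the death receptors, FAS (chromosome 10, 88964050 to 89017059) had 29.9 and 31.6 CPM in the irradiated libraries, against 6.39 and 3.75 in the untreated ones. The counts were 12 and 21 in the irradiated and 5 and 3 in the untreated libraries, so a large ratio rests on few cDNAs. FAS rose 6.20-fold (log2 fold change 2.63 ± 0.51, SE, edgeR adjusted p = 0.00478). Without irradiated library 2 the change was nearly the same size but less precise, 2.60 ± 0.90 (SE), and did not pass (edgeR adjusted p = 0.0794). It also did not pass with thinning to equal depth, where the log2 fold change was 1.74 (edgeR adjusted p = 0.173). The ratio of the summed counts was 6.12 (exact conditional 95% interval 2.77 to 15.3).

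TNFRSF10B (chromosome 8, 23020133 to 23069031), the receptor DR5, had 99.8 and 84.2 CPM in the irradiated libraries, against 63.9 and 56.3 in the untreated ones. Both irradiated libraries were higher. The change of 1.58-fold (95% interval 1.13 to 2.20) did not pass over all genes (edgeR adjusted p = 0.150), nor under any alternative, where the adjusted p ran from 0.120 to 0.665. TNFRSF10A, the receptor DR4 on the same chromosome, had 1 and 3 counts in the irradiated and 3 and 2 in the untreated libraries. The groups overlap, and the ratio of the summed counts, 1.19, has an interval of 0.236 to 5.52, too wide to show a difference in either direction at this depth.

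Of the remaining genes, TP53INP1 (chromosome 8, 94925972 to 94949378) had 47.4 and 67.7 CPM in the irradiated libraries, against 12.8 and 12.5 in the untreated ones. The groups are well apart and the untreated pair nearly equal. It rose 4.85-fold (log2 fold change 2.28 ± 0.35, SE, edgeR adjusted p = 0.000655) and passed in each of the 8 alternatives that gave it an adjusted p. ZMAT3 (chromosome 3, 179017223 to 179072513) had 147 and 219.6 CPM in the irradiated libraries, against 57.5 in each of the untreated ones. Its irradiated libraries differed 1.49-fold (exact conditional 95% interval 1.10 to 2.05), less than the gap between the groups. It rose 3.42-fold (log2 fold change 1.77 ± 0.22, SE, edgeR adjusted p = 5.61e-05) and passed under all 10 alternatives. TP53I3 (chromosome 2, 24077433 to 24084834) had 25.0 and 15.04 CPM in the irradiated libraries, against 12.8 and 8.75 in the untreated ones. With 10 and 10 counts in the irradiated and 10 and 7 in the untreated libraries, its change of 1.83-fold (95% interval 0.869 to 3.85) did not pass (edgeR adjusted p = 0.474).

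Per kilobase of the length given in the tables, introns included, BBC3 led after irradiation with 38.2 CPM per kb. BAX followed with 26.7, PMAIP1 with 6.44, TP53INP1 with 2.46, TP53I3 with 2.37, TNFRSF10B with 1.88, ZMAT3 with 1.64, FAS with 0.567 and TNFRSF10A with 0.101. The tables' length for ZMAT3 is 112095 bases against a RefSeq span of 55291. How many of its counts lie within the RefSeq span is not known, so its value per kb on that span is not known either. In untreated cells BAX led with 14.2, ahead of BBC3 with 5.49 and PMAIP1 with 4.11. In the irradiated libraries BBC3 had 37.6 and 38.8 CPM per kb and BAX 17.9 and 35.5. Both BBC3 values lay above both BAX values, but the higher BAX value came close. The 2 irradiated shares of BAX differed 1.99-fold.

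**Figure D2:**
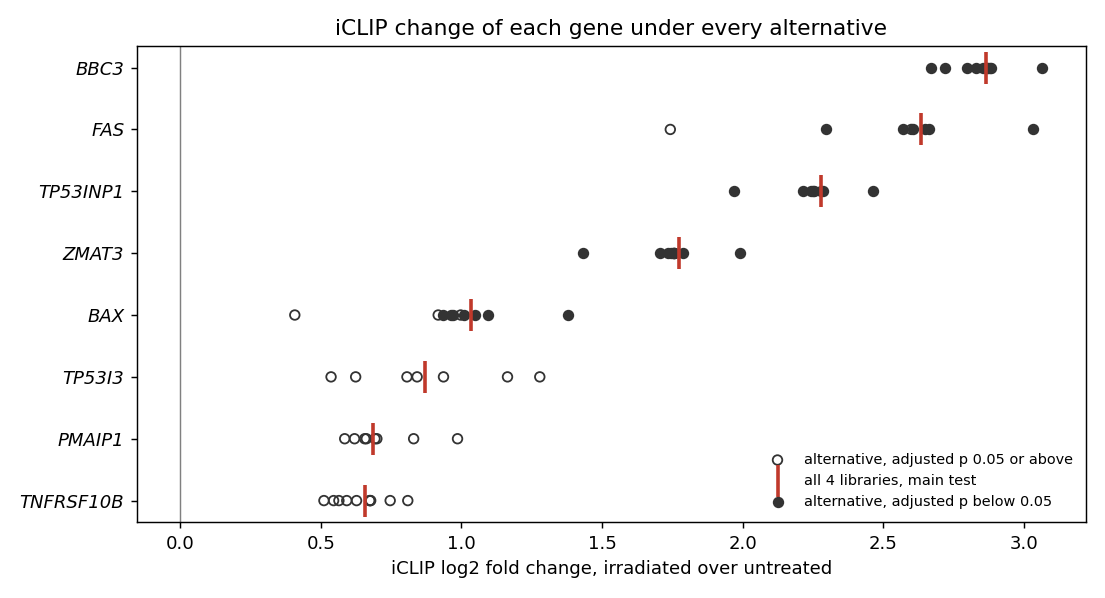
iCLIP log2 fold change of each tested gene, irradiated over untreated, with all 4 libraries (red bar) and under each alternative that gave an adjusted p (filled where it was below 0.05, open otherwise). BBC3, TP53INP1 and ZMAT3 stay filled throughout, FAS and BAX have open points, and every value lies above 0.

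AEN was found in both RNA-seq tables and in no iCLIP table. Its absence there is shared by many expressed genes: of 3037 genes with 500 to 1000 counts in the untreated RNA-seq library, 20.6% are listed in none of the iCLIP tables, and among 306 genes with 5000 or more RNA-seq counts it is 19.0%. COL1A1, SPARC, YBX1 and FTL, with 16189 to 35832 counts in the untreated RNA-seq library, are not listed in iCLIP either. An unlisted gene is therefore no measurement of absent binding, and no iCLIP value is given for AEN.

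In RNA-seq all 9 genes with at least 100 counts were higher in the irradiated library, with counting intervals above 1, as were 20.4% of the 12977 genes of that size. FAS, BBC3, TP53INP1 and ZMAT3 also passed the size rule, a ratio of at least 2-fold with an interval beyond 1.5-fold, which 0.863% of those genes passed upward and 0.624% downward; none of the 10 genes passed it downward. FAS had 1153 counts in the irradiated library and 297 in the untreated one, a ratio of 3.84 (95% counting interval 3.38 to 4.38). BBC3 had 657 counts in the irradiated and 184 in the untreated library, a ratio of 3.53 (2.99 to 4.18). TP53INP1 had 858 and 317 counts in the same order, a ratio of 2.68 (2.35 to 3.05), and ZMAT3 1770 and 860, a ratio of 2.04 (1.87 to 2.21). Among the 8 genes with a fold change in both assays these 4 had the largest changes in each, with FAS and BBC3 at ranks 10 and 14 by RNA-seq ratio among the 12977 genes with at least 100 counts.

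AEN and TNFRSF10B fell just short of the 2-fold limit. AEN had 1435 counts in the irradiated library and 729 in the untreated one, a ratio of 1.95 (1.78 to 2.13), and TNFRSF10B had 1430 and 743, a ratio of 1.90 (1.74 to 2.08). BAX had 1616 counts in the irradiated library and 1133 in the untreated one, a ratio of 1.41 (1.31 to 1.52). TP53I3 had 998 and 706 counts in the same order, a ratio of 1.40 (1.27 to 1.54), and PMAIP1 740 and 648, a ratio of 1.13 (1.01 to 1.26). The 2 BH3-only genes thus had the second largest and the smallest ratio of the 9, 3.53 and 1.13, with intervals that do not meet. TNFRSF10A is listed at 1 count in the untreated library and not in the irradiated one, where 3 counts, the limit that a count of 0 allows, would be 0.230 CPM. Of the 2 TRAIL receptors, only TNFRSF10B was measured at a usable depth. These ratios compare 1 library with 1 library, and the intervals cover counting error only.

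**Figure D3:**
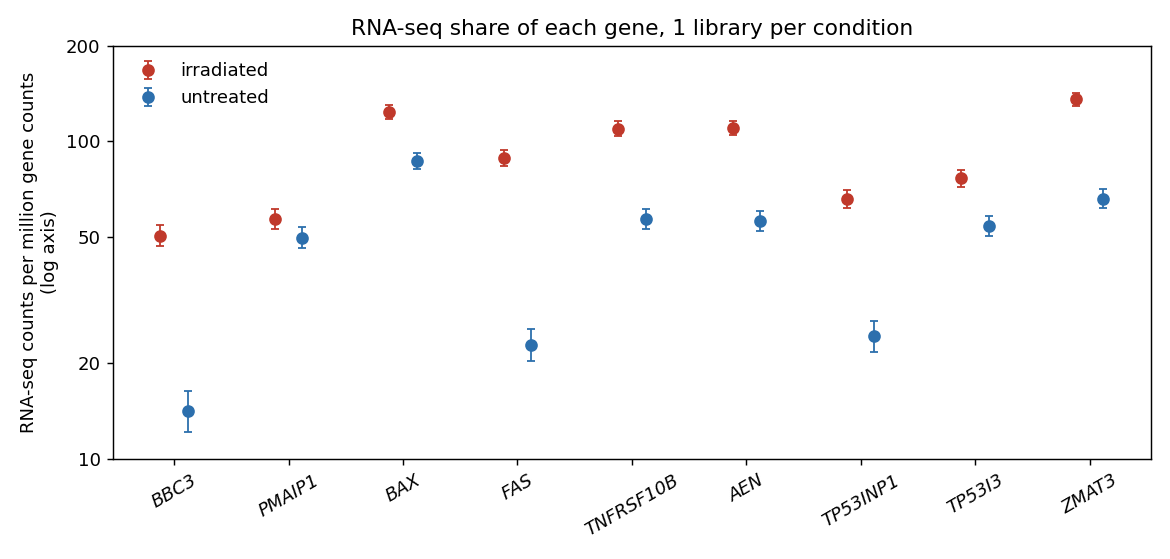
RNA-seq level of each gene in CPM (log axis) in the irradiated (red) and untreated (blue) library, with exact 95% intervals that cover counting error only; TNFRSF10A, with 1 count in all, is left out. The irradiated point is the higher one for all 9 genes, widely for FAS and BBC3 and barely for PMAIP1.

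Set side by side for the 8 genes measured in both, the iCLIP fold was the larger one for 7. TNFRSF10B was the exception at 1.58-fold in iCLIP and 1.90-fold in RNA-seq. The share of all genes with the larger fold in iCLIP was not computed, so this count is no trait of the set. FAS, TP53INP1 and TP53I3, among the 7, met the iCLIP filter through the irradiated libraries alone, which favours a large iCLIP rise. The iCLIP fold was also the larger one for both p53 regulators called in iCLIP, CDKN1A (7.63 in iCLIP and 3.43 in RNA-seq) and MDM2 (5.15 and 3.59). The pattern is therefore not particular to these genes. For BBC3 the fold was 7.28 in iCLIP and 3.53 in RNA-seq, and for ZMAT3 3.42 and 2.04. For these 2 genes the iCLIP interval lay wholly above the RNA-seq counting interval, which for ZMAT3 ended without irradiated library 2 (iCLIP log2 0.89 to 1.97, RNA-seq up to 1.14). For FAS (6.20 and 3.84), TP53INP1 (4.85 and 2.68), BAX (2.05 and 1.41), TP53I3 (1.83 and 1.40) and PMAIP1 (1.61 and 1.13) the intervals overlapped. The order turned for BAX without irradiated library 2 (log2 0.41 in iCLIP and 0.50 in RNA-seq) and for FAS with thinning (1.74 and 1.94), in comparisons added after seeing the data. The difference between the assays was not tested, since RNA-seq has 1 library per condition, and its intervals leave out the spread between cultures. The 2 assays also used cells of different genotype.

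**Figure D4:**
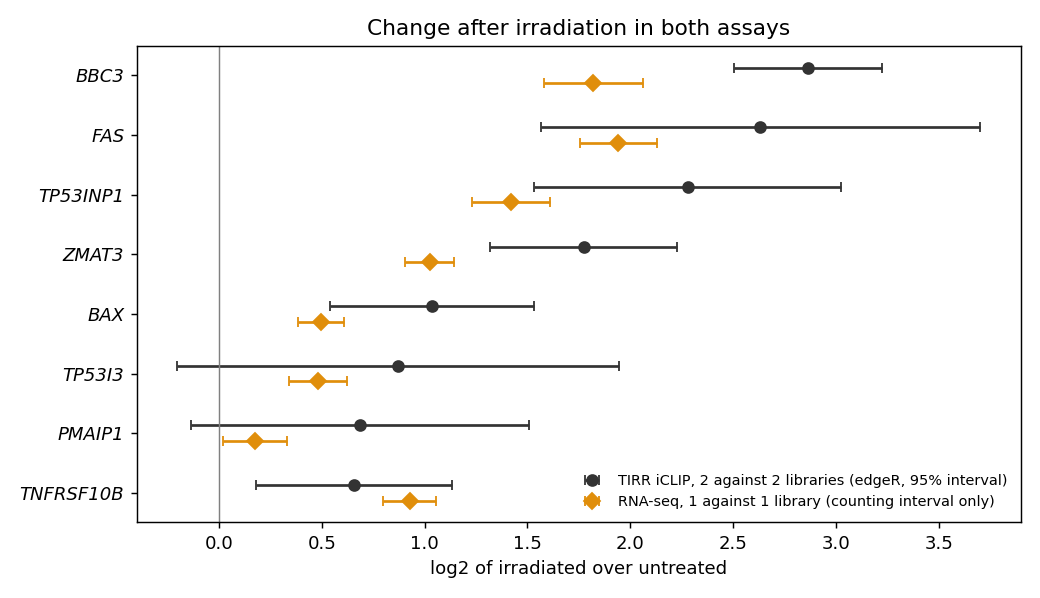
Log2 change, irradiated over untreated, of the 8 genes measured in both assays: TIRR iCLIP (black circles, edgeR 95% intervals, 2 against 2 libraries) and RNA-seq (orange diamonds, counting intervals, 1 against 1 library). The iCLIP point lies to the right of the RNA-seq point for each gene except TNFRSF10B.

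The iCLIP share was also divided by the RNA-seq share of the same condition, a ratio between assays on cells of different genotype. Without background correction, RNA recovered with TIRR is not separated from RNA recovered in other ways. BBC3 had ratios of 8.87 and 9.13 in the irradiated libraries, against 5.28 and 4.01 in the untreated ones. The median of 11151 genes was 0.830 in irradiated and 0.863 in untreated cells. The mean for BBC3 exceeded that of 94.5% of genes in irradiated and of 87.5% in untreated cells. BAX had mean ratios of 1.51 (irradiated) and 1.15 (untreated), ZMAT3 1.36 and 0.880, and TNFRSF10B 0.847 and 1.06. TP53INP1 had 0.888 in irradiated and 0.544 in untreated cells, PMAIP1 0.506 and 0.368, FAS 0.359 and 0.250, and TP53I3 0.274 and 0.210. So FAS, higher after irradiation in both assays, had a lower ratio of iCLIP to RNA-seq share than the median gene in both conditions, and BBC3 a higher one. The tables do not separate introns from exons, so how much of each ratio comes from unspliced RNA is not known.

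**Figure D5:**
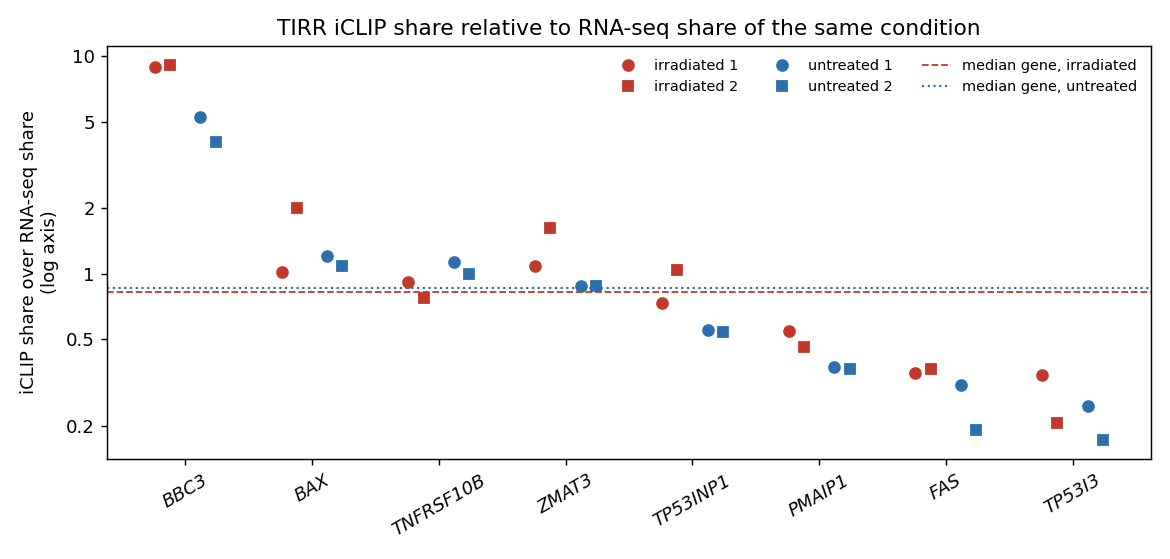
iCLIP share divided by RNA-seq share of the same condition (log axis) in each irradiated (red) and untreated (blue) iCLIP library, with lines at the median of 11151 genes. BBC3 lies far above both medians, FAS and TP53I3 below them, and the 2 irradiated libraries of BAX stand at 1.02 and 2.01.

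The promoter table of RefSeq (GRCh38.p14) holds windows of 250 bases before to 50 after the start for 7 of the 10 genes, 10 windows in all. They were searched on both strands for the p53 consensus decamer, the binding motif of a p53 dimer, which reads the same on either strand. An exact decamer stands in 2 of these windows, 1 of FAS and 1 of AEN, and in 6.63% of all 35116 windows. A pair of decamers at most 13 bases apart with at most 2 mismatches in total stands in 3 windows, 2 of FAS and 1 of AEN, and in 7.82% of all windows. The pair with no spacer is shown for FAS and AEN because it holds the exact decamer, with the bases that match the consensus in capitals.
FAS, chr10:88991309-88991328, + strand: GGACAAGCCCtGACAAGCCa
AEN, chr15:88621306-88621325, + strand: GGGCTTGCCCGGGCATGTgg
The pair begins 122 bases before a listed FAS start and 34 bases before the AEN start. The other 2 listed FAS starts lie upstream of this pair. The 250 bases before these starts are given so that the sites can be read in place, with the exact decamer in capitals, beside those of BBC3, the gene with the largest iCLIP rise, whose window holds none.
FAS, chr10:88991181-88991430, + strand: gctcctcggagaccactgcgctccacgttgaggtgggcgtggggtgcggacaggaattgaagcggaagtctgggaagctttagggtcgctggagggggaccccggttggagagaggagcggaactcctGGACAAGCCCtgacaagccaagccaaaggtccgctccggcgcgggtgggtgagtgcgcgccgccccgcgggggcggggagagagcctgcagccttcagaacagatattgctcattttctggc
AEN, chr15:88621090-88621339, + strand: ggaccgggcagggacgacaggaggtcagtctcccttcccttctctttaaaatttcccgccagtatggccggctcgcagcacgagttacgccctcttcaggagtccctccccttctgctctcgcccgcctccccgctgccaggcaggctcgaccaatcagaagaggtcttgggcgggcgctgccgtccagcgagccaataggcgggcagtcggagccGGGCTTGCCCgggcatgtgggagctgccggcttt
BBC3, chr19:47232668-47232917, - strand: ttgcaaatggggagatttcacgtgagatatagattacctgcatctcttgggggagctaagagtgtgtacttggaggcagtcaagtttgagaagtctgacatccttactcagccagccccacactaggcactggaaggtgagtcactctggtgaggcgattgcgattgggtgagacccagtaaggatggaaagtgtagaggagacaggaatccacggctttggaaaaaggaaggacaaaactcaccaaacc
A match is a description of these letters and not a measured binding site, and a window without one says nothing of sites elsewhere in the gene.

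Several of the genes share ground with another gene, and the sources used here do not state whether counting used strand, so reads of such pairs cannot be told apart. ACTA2, the smooth muscle actin gene, overlaps FAS over 27288 bases. It had 10 and 21 iCLIP counts in the irradiated and 1 and 7 in the untreated libraries, which is a rise of 2.54 on the log2 scale (edgeR adjusted p = 0.0181), and an RNA-seq ratio of 1.68 (1.28 to 2.23). Its log2 fold change ran from 1.76 without untreated library 1 to 4.35 without untreated library 2. The call ended without irradiated library 2 (2.34, edgeR adjusted p = 0.205), without untreated library 1 (0.163) and with thinning (1.96, 0.167). NDUFAF6, a complex I assembly factor gene, contains all of TP53INP1. It had an RNA-seq ratio of 2.60 (2.32 to 2.91), close to the 2.68 of TP53INP1, and rose 1.83-fold in iCLIP (edgeR adjusted p = 0.0212), a call that ended in 6 of 10 alternatives, among them without irradiated library 2 (edgeR adjusted p = 0.219), untreated library 1 (0.0798) or untreated library 2 (0.141). FAM228B contains all of TP53I3 and had an RNA-seq ratio of 1.46 (1.34 to 1.59), beside 1.40 for TP53I3. In iCLIP its log2 fold change was -0.00 (edgeR adjusted p = 0.999). RHOBTB2 overlaps TNFRSF10B by 67 bases and had an RNA-seq ratio of 1.10 (0.988 to 1.23). The part of these overlaps in the values of FAS, TP53INP1 and TP53I3 was not tested. FTL, the ferritin light chain gene that begins 3510 bases from BAX, is unlisted in iCLIP and had an RNA-seq ratio of 1.07 (1.05 to 1.10). SF3B6, a splicing factor gene 1106 bases from TP53I3, is likewise unlisted in iCLIP, with an RNA-seq ratio of 1.12 (1.02 to 1.23). ISG20, an exonuclease gene 3350 bases from AEN, had 38 counts in the irradiated and 56 in the untreated RNA-seq library. The other neighbours were short or noncoding RNA genes and pseudogenes with at most 3 counts in any library that lists them.

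Of the other BCL2 family genes, 8 of 14 were tested in iCLIP, 2 rose and 0 fell, beside 2.43% and 1.07% of all tested genes. Their median log2 fold change was 0.06, beside 0.00 over all tested genes. BCL2L1, which encodes the survival protein BCL-XL, rose 2.51-fold (edgeR adjusted p = 1.31e-05), with shares of 447 and 477 CPM in the irradiated against 196 and 190.1 in the untreated libraries. Its RNA-seq ratio was 1.30 (1.22 to 1.39). BCL2L11, the gene of the BH3-only protein BIM, rose 1.60-fold in iCLIP (edgeR adjusted p = 0.00362, but 0.142 without untreated library 2), while its RNA-seq counts were 540 in the irradiated and 767 in the untreated library, a ratio of 0.696 (0.622 to 0.778). BMF, another BH3-only gene, was the single member of this list past the RNA-seq size rule, 2.98-fold lower with 87 counts in the irradiated and 256 in the untreated library. Of all genes with at least 100 counts, 0.624% passed the rule downward. MCL1, a survival gene, had an RNA-seq ratio of 1.03 (0.977 to 1.10).

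Of 16 caspase, apoptosome and inhibitor of apoptosis genes, 7 were tested in iCLIP. Of these, 1 rose and 0 fell (median log2 fold change 0.13), beside 2.43% and 1.07% of all tested genes. The riser was CASP8, the initiator caspase of death receptors, 1.80-fold (edgeR adjusted p = 0.0222, but 0.379 without untreated library 1), with an RNA-seq ratio of 0.981 (0.865 to 1.11). In RNA-seq BIRC3, an inhibitor of apoptosis, was 4.09-fold higher (2.85 to 5.99), and it is unlisted in iCLIP. CYCS, cytochrome c, had an RNA-seq ratio of 1.30 (1.21 to 1.39), and BIRC5 (survivin), also a mitotic gene, had a ratio of 0.710 (0.672 to 0.749). BIRC5 had 2 and 3 iCLIP counts in the irradiated and 13 and 22 in the untreated libraries (edgeR adjusted p = 0.0641, and 0.0340 with no filter). Of 16 genes of the death receptor pathway outside FAS, TNFRSF10A and TNFRSF10B, 8 were tested and 0 changed in iCLIP, beside 3.5% of all tested genes. In RNA-seq 0 of 9 passed the size rule, beside 1.49% of all genes with at least 100 counts. TNFRSF1A, the main TNF receptor gene, had an RNA-seq ratio of 1.01 (0.940 to 1.07), and DAP3 one of 1.03 (0.940 to 1.14).

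Of 22 other p53 targets linked to cell death, 6 of which are also in a list above, 11 were tested in iCLIP. Of these, 4 rose and 0 fell (median log2 fold change 0.51), beside 2.43% and 1.07% of all tested genes. The 4 risers were DRAM1, an autophagy regulator, 3.20-fold, PHLDA3, an inhibitor of AKT signalling, 2.69-fold, STEAP3, a metalloreductase, 2.04-fold, and TP73, a p53 family gene, 1.52-fold (edgeR adjusted p = 0.00464, 0.00566, 0.00176 and 0.0407). For DRAM1 the edgeR adjusted p was 0.0540 without irradiated library 2, for PHLDA3 and STEAP3 it was 0.112 and 0.0802 with thinning, and TP73 did not pass in 7 of 10 alternatives. In RNA-seq 5 of 18 were higher and 1 lower past the size rule, beside 0.863% and 0.624% of all genes with at least 100 counts. Among the higher ones were DRAM1 with a ratio of 2.78 (2.37 to 3.27), PHLDA3 with 2.09 (1.93 to 2.28) and KLLN with 8.60 (4.83 to 16.6). The lower one was PHLDA1, 0.412 (0.379 to 0.448). SHISA5, with the second most RNA-seq counts of this list, had a ratio of 0.977 (0.927 to 1.03). Of 19 genes of p53 and its regulators, 16 were tested, 2 rose, CDKN1A and MDM2, and 0 fell, beside 2.43% and 1.07% of all tested genes. CDKN1A, MDM2 and PPM1D passed the RNA-seq size rule upward, beside 0.863% of all genes with at least 100 counts. PPM1D, the phosphatase that dampens p53 signalling, had a ratio of 2.35 (2.19 to 2.51).

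Genes of like change were sought among 173 other genes called upward in iCLIP, by distance in the plane of both log2 changes. These genes also had an approved symbol and at least 100 RNA-seq counts in the library with more. From the median of the 8 genes measured in both assays (log2 1.40 in iCLIP and 0.98 in RNA-seq) the nearest were ZNF469 (0.00782), PTCHD4 (0.0580), FLG-AS1 (0.0642), PHLDA3 (0.0927) and PANK1 (0.0962). PANK1 did not pass without irradiated library 2 (log2 0.92, edgeR adjusted p = 0.394) or with thinning (0.101). That median includes FAS, TP53INP1 and TP53I3, which met the filter through the irradiated libraries alone. From the median of the 5 genes that met it in both groups (1.04 and 0.93), a point added after seeing the data, the nearest were FGFR2 (0.0305), NECTIN3-AS1 (0.0872), CERS5 (0.177), REV3L (0.179) and APCDD1L-DT (0.185). REV3L did not pass without untreated library 2 (edgeR adjusted p = 0.106) or with DESeq2 (0.0889). The 2 lists share 0 genes, so which genes are nearest depends on the point chosen.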

How the data were processed

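The authors deposited 1 table per library with whole-number cDNA counts per gene, unscaled, 1 line of intergenic counts and each gene's percent of all cDNA, per the file headers. The build is hg38, and kallisto 0.44.0 is named for RNA-seq, per the submitters' processing notes; for the aligner, duplicate removal, annotation release and strand use the sources used here give nothing. The intergenic line, 30.6% to 31.3% of iCLIP and 44.4% of RNA-seq counts, was left out of library sizes and tests. Genes were joined by identifier.

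iCLIP counts of all genes were tested in R 4.3.3 with edgeR 4.0.16, by its quasi-likelihood F test (TMM scaling, filterByExpr, Benjamini-Hochberg adjustment at 0.05, two-sided). The SE is the log2 fold change divided by the root of F. RNA-seq ratios are TMM-scaled with exact conditional 95% intervals. Shares carry exact Clopper-Pearson intervals, and all intervals on counts cover counting error only. iCLIP over RNA-seq ratios used a prior count of 0.5 and genes with at least 50 counts in both RNA-seq libraries. Alternatives were library totals, no filter, a filter of 20 counts in 2 libraries, DESeq2 1.42.0, thinning, a replicate block and leaving out each library. The edgeR step was tested on simulated counts. Python 3.11.15, scipy 1.17.1 and matplotlib 3.10.9 did the rest.

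The 10 genes and the gene lists were chosen with earlier results of these data known. The text names these 10 genes, listed genes that passed a threshold (up to 6 a list) or had the most RNA-seq counts (2 a list), neighbours within 5000 bases and the 5 genes of most like change.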

Additional observations from a re-analysis of the deposited data

How the results depend on the processing

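No direction of the 8 tested genes changed under any alternative. Of all genes, 323 were called in iCLIP with all libraries, 190 with a replicate block, 175 with thinning to equal depth, 122 with DESeq2 and 186 to 421 with 1 library left out (186 without untreated library 1). Of the p53 apoptosis genes, 5 were called, and 3 with the stricter filter, where 4 were tested, 3 with thinning, 2 with DESeq2, which gave no adjusted p for FAS, TP53INP1, PMAIP1 and TP53I3, and 3 to 5 with 1 library left out (3 without irradiated library 2). The cause of the losses with thinning was not tested. With the replicate block BAX stayed called (edgeR adjusted p = 0.0469) and the same 5 genes passed. The deviations of same-numbered libraries correlated at -0.0935 over 9230 genes, so no shared deviation by replicate number was seen. The labels do not say whether replicate numbers pair the libraries, and this correlation cannot settle it. In RNA-seq 193 genes passed the size rule, 98 with a minimum of 500 counts, which keeps fewer genes, and 855 at 1.5-fold, where AEN and TNFRSF10B joined the 4. Depth limits TNFRSF10A, TP53I3, FAS and PMAIP1, with 1 to 21 counts per iCLIP library.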
